A study of Mus musculus with 4 samples.

Results

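The genes described here are 41 named genes of ependymal cells and of the cilium, 20 of the motile cilium program and 21 of cilia in general. They were selected by name alone, as rows of the deposited expression table that carry one of these names. Of the 41 genes, 40 had a row among the 18169 rows of the table, each in 1 row. Spag17 had no row. RNA-seq was performed on primary neural stem/progenitor cells (NSCs) of the C57BL/6 strain, with 2 +/+ and 2 Chd5-/- samples. The cells came from the periventricular region of individual newborn brains and were kept undifferentiated with EGF and FGF2. The growth protocol gives postnatal day 1 for all cultures. The age labels differ, with days 1 and 2 entered for +/+ and days 3 and 4 for Chd5-/- mice, so that age and genotype cannot be told apart if they hold. Chd5 encodes a chromatin remodelling protein, and the labels name no litter for any sample.

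Cilia are microtubule-based projections of the cell surface, built on a basal body. NSCs of the ventricular wall carry a single immotile primary cilium that serves signalling, while ependymal cells, which arise from the same radial glia and line the ventricles, carry tufts of motile cilia that move cerebrospinal fluid. The motile program is switched on by Foxj1 and RFX transcription factors and supplies dynein arms, radial spokes and a central apparatus. Both kinds of cilia need intraflagellar transport (IFT) and the BBSome. IFT-B complexes with kinesin-2 carry cargo to the tip, IFT-A complexes with dynein-2 carry it back, and the BBSome moves membrane proteins in and out.

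RFX factors bind X-box sequences in the promoters of many cilium genes, so the promoters were searched for these letters as a feature that the choice of genes had not used. RefSeq promoter windows of 300 bases (GRCm38.p6, 250 bases before to 50 after a start site) were matched for 35 of the 41 genes, with 37 windows. The RFX core site GTTGCC was present on either strand in 18 of the 37 windows (48.6%), against 4111 of all 32851 windows (12.5%). It was found in 8 of 18 windows of motile and 10 of 19 windows of general cilium genes. A stricter X-box, the site GTTNCC followed after 0 to 3 bases by its inverse GGNAAC, was present in 2 of the 37 windows and in 264 of all windows (0.804%). These matches can overlap those of the core site. The 2 stricter matches, which are in general cilium genes, are shown with the X-box in capitals.
Bbs7 X-box, chr3:36613489-36613518, minus strand: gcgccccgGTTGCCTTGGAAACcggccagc
Ift57 X-box, chr16:49699226-49699254, plus strand: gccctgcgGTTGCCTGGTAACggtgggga
The following stretches show the core site in capitals, or its reverse complement where the match lay on the other strand. They were chosen to show an IFT-A gene, an IFT-B gene, an RFX factor and an axonemal gene.
Ift140 core site, chr17:25015965-25015994, plus strand: gcgtgttgtgacGGCAACctcgcgcccttg
Ift172 core site, chr5:31291097-31291126, minus strand: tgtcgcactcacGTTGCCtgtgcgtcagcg
Rfx2 core site, chr17:56831107-56831136, minus strand: agcttggtaaccGTTGCCgggcgcaacgcc
Tekt1 core site, chr11:72361880-72361909, minus strand: tgcgtccgtccgGTTGCCatagagaccgca
Of the 21 core matches in these promoters, 16 started before the start site. The forkhead core TGTTTAC was in 0 of the 37 windows and in 3.65% of all windows. A match to these letters is a description of the window and not a binding site.

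The values are TPM, a transcript's share of all transcripts in a library after correction for its length, scaled to a fixed total. As TPM keep no record of read number, sequencing depth is unknown here, and intervals for counting error cannot be computed. Chd5 itself was at 0.39 and 0.37 TPM in +/+ NSCs, against 0.06 and 0.04 TPM in Chd5-/- NSCs. The rank correlation of TPM between the 2 Chd5-/- samples was 0.904, against 0.974 between the 2 +/+ samples. Between genotypes it ran from 0.904 to 0.925, so the Chd5-/- samples were no more alike than samples of unlike genotype. No label ties a sample to a named animal, so p-values measure the spread between these 4 samples, which may in part be technical. In bulk RNA, fewer cells of a type and less RNA per cell cannot be told apart.

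The comparison asked which cilium genes differed between Chd5-/- and +/+ NSCs. With limma on log2(TPM + 1), over the 12576 rows whose mean reached 1 TPM, 0 of the 26 cilium genes tested passed an adjusted p-value of 0.05 (Benjamini-Hochberg over all rows). Of all rows, 0.0557% passed. At an unadjusted p-value under 0.05, 2 of 5 motile and 3 of 21 general cilium genes were higher in Chd5-/- NSCs, where 21.9% of all rows were. None of the 26 genes was lower at that level, where 2.27% of all rows were. The genes with an unadjusted p-value under 0.05 were Rsph9, Foxj1, Ift140, Ift46 and Ift20. Without Chd5-/- replicate 1, 1 motile gene passed the adjusted threshold (Rsph9, adjusted p = 0.0469), and without Chd5-/- replicate 2, 1 general gene did (Prom1, adjusted p = 0.0247), when 1247 and 1086 of all rows passed. The median log2 fold change was 0.81 for the 5 motile genes tested and 0.50 for the 21 general genes, beside 0.34 for all rows. Every log2 fold change here is a difference in mean log2(TPM + 1), Chd5-/- minus +/+, and understates changes of genes with low TPM.

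Among the regulators, Foxj1, the transcription factor that commits cells to motile ciliogenesis, was low in both genotypes. It was at 1.52 and 1.71 TPM in +/+ NSCs, against 6.50 and 5.11 TPM in Chd5-/- NSCs. The genotypes did not overlap, and the mean TPM was 3.59-fold higher in Chd5-/- NSCs. The log2 fold change was 1.37 (standard error 0.32, adjusted p = 0.122 from limma). Foxj1 lies on the minus strand of chromosome 11 of GRCm38, from 116330704 to 116335399. Its transcript has a GC content of 61.4%, and with trends with GC content and transcript length removed from each sample the log2 fold change was 0.29. By its +/+ level Foxj1 stood at percentile 38.5 of all rows.

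Rfx3, an RFX factor that acts in primary and motile ciliogenesis, was the only regulator at a substantial level. It was at 31.53 and 29.53 TPM in +/+ NSCs, against 19.91 and 39.04 TPM in Chd5-/- NSCs, so the +/+ values lay between the Chd5-/- values. Its log2 fold change was -0.12, with a 95% interval from -1.05 to 0.80. Rfx4, an RFX factor of the wider lists, was at 80.31 and 84.12 TPM in +/+ NSCs, against 136.01 and 186.89 TPM in Chd5-/- NSCs. Its log2 fold change was 0.95 (adjusted p = 0.130 from limma). Rfx2, a related factor best known from spermatids and multiciliated cells, was at 0.72 and 0.40 TPM in +/+ NSCs, against 2.56 and 1.07 TPM in Chd5-/- NSCs. The genotypes did not overlap for Rfx2, but its log2 fold change of 0.81 had an adjusted p-value of 0.311 and became -0.14 with the trends removed. Ccno, a cyclin-like protein needed to multiply basal bodies, stayed between 0.34 and 0.52 TPM in all 4 samples.

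Of the dynein arms, the motors of the motile axoneme, 5 genes are among the 41. All 5 had a mean under 1 TPM and were not tested. Other dynein arm genes, described with the wider lists, varied in level. Some were higher, such as Dnal1, a light chain, between 15.30 and 16.73 TPM. Dnaic2, an intermediate chain, was at 0.96 and 0.82 TPM in +/+ and 2.36 and 2.50 TPM in Chd5-/- NSCs. Others were as low as the 5, such as Dnah6, at or below 0.01 TPM, and Dnah10, at or below 0.06 TPM. Dnah5, a heavy chain of the outer arm, was listed at 0.01 and 0 TPM in +/+ NSCs, against 0.06 and 0.09 TPM in Chd5-/- NSCs. Dnah9 and Dnah11, other outer-arm heavy chains, did not exceed 0.08 and 0.06 TPM in any sample. Dnaic1, an intermediate chain, was at 0.66 and 0.42 TPM in +/+ NSCs, against 1.07 and 0.42 TPM in Chd5-/- NSCs, and so overlapped. Dnali1, a light chain of the inner arm, was the only one of these 5 to reach 1 TPM in both Chd5-/- samples. It was at 0.27 and 0.47 TPM in +/+ NSCs, against 1.04 and 1.07 TPM in Chd5-/- NSCs. Exons of Dnali1, Dnaic1 and Dnah11 overlap those of the opposite-strand genes Gnl2, Enho and Cdca7l. The libraries were stranded, but a strand setting for counting is not given in the sources used here, so these low values may hold reads of the neighbours.

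Of the radial spokes, which relay signals from the central apparatus to the dynein arms, the head gene Rsph9 was the motile structural gene with the largest difference among those tested. It was at 1.88 and 2.28 TPM in +/+ NSCs, against 7.50 and 8.89 TPM in Chd5-/- NSCs. Both Chd5-/- values were above both +/+ values, with a 3.94-fold higher mean. The log2 fold change was 1.58 (standard error 0.30, adjusted p = 0.120 from limma), and 0.67 with the trends removed. Rsph9 lies on chromosome 17 from 46122035 to 46144216, minus strand. Its partner in the spoke head, Rsph1, behaved otherwise. It was at 0.57 and 0.53 TPM in +/+ NSCs, against 1.90 and 0.49 TPM in Chd5-/- NSCs, so that 1 sample alone was high.

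The central apparatus genes Spag6, Spag16 and Hydin stayed at or below 0.17 TPM in every sample. Spag6 has a near-identical paralog, Spag6l, between which reads can be split. Spag6l was at 0.26 and 0.06 TPM in +/+ NSCs, against 0.34 and 0.86 TPM in Chd5-/- NSCs. Hydin, which builds a projection of the central pair, was at 0.07, 0.05, 0.09 and 0.01 TPM across +/+ replicates 1 and 2 and Chd5-/- replicates 1 and 2. Of the 19 motile genes, 8 reached 1 TPM in any sample.

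Ccdc39 and Ccdc40 encode a pair of proteins that set the spacing of dynein arms along the axoneme. Ccdc39 was at 3.05 and 4.31 TPM in +/+ NSCs, against 5.05 and 6.51 TPM in Chd5-/- NSCs, without overlap (log2 fold change 0.54, standard error 0.33, adjusted p = 0.360), but had -0.13 with quantile normalization. Ccdc40 was between 0.26 and 0.35 TPM in all samples. Exons of Ccdc39 overlap those of Ttc14 on the opposite strand, and no such overlap was annotated for Ccdc40. Tekt1, a filament protein of the axoneme, was at 0.22 and 0.30 TPM in +/+ NSCs, against 0.51 and 0.49 TPM in Chd5-/- NSCs. Tppp3, a microtubule-binding protein of ciliated cells, was listed at 0.15 and 0 TPM in +/+ NSCs, against 0.69 and 0.79 TPM in Chd5-/- NSCs. Ccdc113, another axonemal protein, ranged from 0.06 to 0.45 TPM and overlapped.

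**Figure D1:**
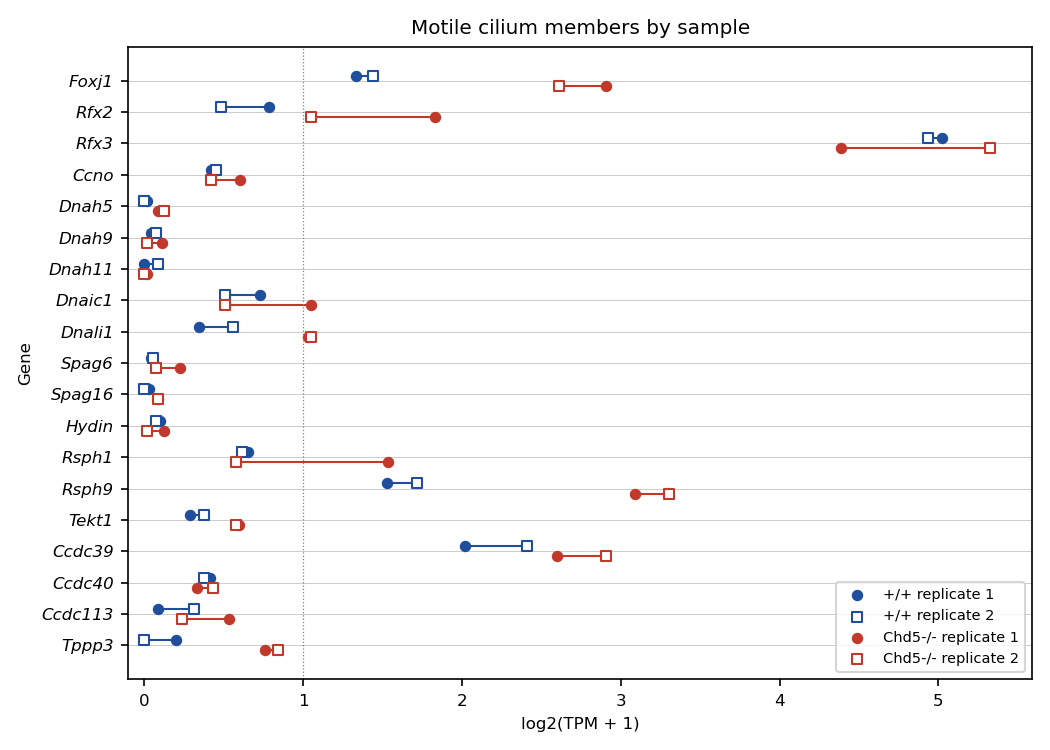
Levels of the 19 motile cilium genes as log2(TPM + 1), with 1 point per sample (blue, +/+; red, Chd5-/-; filled circles, replicate 1; open squares, replicate 2) and a line joining the samples of a genotype. The dotted line marks 1 TPM, which 4 genes exceed in each +/+ sample, and Foxj1 and Rsph9 show 2 separate pairs of points.

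Among the 14 motile genes under the minimum, both Chd5-/- samples lay above both +/+ samples in 6 and below in 0. Of all rows under the minimum these shares were 29.4% and 5.08%. Of the 5 motile genes tested, the Chd5-/- samples lay above in 4, where 46.3% of all rows tested did. The motile genes at 1 TPM or more numbered 4 in each +/+ sample, 8 in Chd5-/- replicate 1 and 6 in Chd5-/- replicate 2.

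The general cilium genes formed a different picture in level, as all 21 passed the minimum and 20 of them were at 1 TPM or more in every sample. In the +/+ samples they ran from Kif3a, with a mean of 53.1 ± 9.62 TPM (SD, n = 2 per genotype here and below), to Prom1, with 2.57 ± 2.23 TPM. Kif3a is a motor subunit of kinesin-2, which drives IFT-B trains. It was followed by the IFT-B genes Ift74 at 43.4 ± 6.29 TPM, Ift52 at 33.3 ± 0.898 TPM and Ift20 at 24.0 ± 6.60 TPM. In this order of +/+ means, the samples of neighbouring genes overlapped in 13 of 20 pairs, so most neighbours could not be ranked. The order had 7 separated steps, among them those from Ift74 to Ift52 and from Ift52 to Ift20. The 3 lowest genes beside Prom1 were Ift88, Bbs1 and Ift122, at 3.76, 4.48 and 6.66 TPM.

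Both Chd5-/- samples lay above both +/+ samples in 14 of the 21 general genes and below in 0, where 46.3% and 13% of all rows tested did. Counts of overlap, here and elsewhere, used TPM as deposited, were not repeated under other scalings and can depend on scaling. The size factors by median of ratios were 0.930 and 0.822 for +/+ and 1.16 and 1.17 for Chd5-/- samples. The log2 fold changes ran from -0.19 for Bbs4 to 2.12 for Prom1, and 16 of 21 were positive, beside 70.4% of all rows. With median-of-ratios scaling 12 of 21 were positive, beside 6028 of 12576 rows.

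Within IFT-B, the median log2 fold change of its 10 genes was 0.38, and -0.017 with median-of-ratios scaling. Ift46, a core subunit known from algae to bring outer dynein arms into the cilium, was at 9.07 and 6.23 TPM in +/+ NSCs, against 13.63 and 22.82 TPM in Chd5-/- NSCs. Its genotypes did not overlap (log2 fold change 1.13, standard error 0.36, adjusted p = 0.163). Ift20, which also works at the Golgi in sorting ciliary membrane proteins, was at 28.63 and 19.29 TPM in +/+ NSCs, against 49.91 and 36.53 TPM in Chd5-/- NSCs (log2 fold change 0.83, standard error 0.31, adjusted p = 0.188). Ift172, a peripheral subunit that acts in the turnaround at the ciliary tip, was at 8.57 and 7.85 TPM in +/+ NSCs, against 11.82 and 20.21 TPM in Chd5-/- NSCs (log2 fold change 0.84, adjusted p = 0.212). For each of Ift46, Ift20 and Ift172 the gap between the Chd5-/- samples was wider than that between the nearest samples of the 2 genotypes.

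The other IFT-B genes differed less. Ift27, a small GTPase, was at 14.81 and 13.00 TPM in +/+ NSCs, against 19.99 and 20.04 TPM in Chd5-/- NSCs. Its log2 fold change of 0.50 became -0.37 with the trends removed. Ift57, Ift80 and Ift52 had log2 fold changes of 0.40, 0.36 and 0.34 with Chd5-/- samples above +/+ samples in each, but Ift80 and Ift52 had -0.037 and -0.063 with median-of-ratios scaling. Ift74 and Ift81, which together bind tubulin as cargo, had log2 fold changes of -0.14 and -0.014 and overlapped between genotypes. Ift81 was at 22.43 and 22.69 TPM in +/+ NSCs, against 19.04 and 26.17 TPM in Chd5-/- NSCs, and the 95% interval of its log2 fold change went from -0.68 to 0.66. Ift88, a core subunit whose loss is the classical way to remove cilia in mice, was at 4.13 and 3.38 TPM in +/+ NSCs, against 2.47 and 5.21 TPM in Chd5-/- NSCs. For Ift88 the interval went from -1.05 to 0.99.

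IFT-A acts in return transport and in the entry of membrane receptors. Its 2 genes among the 41, Ift140 and Ift122, were both higher in both Chd5-/- samples, as 46.3% of all rows tested were. Of the IFT-A genes of the wider lists, Ift43, Wdr19 and Wdr35 also had both Chd5-/- samples above both +/+ samples. Ift43 was at 15.40 and 17.00 TPM in +/+ and 33.75 and 30.39 TPM in Chd5-/- NSCs. Ttc21b overlapped, at 9.87 and 12.72 TPM in +/+ and 15.12 and 10.83 TPM in Chd5-/- NSCs. Ift140 was at 8.99 and 6.76 TPM in +/+ NSCs, against 16.48 and 20.02 TPM in Chd5-/- NSCs. The mean TPM was 2.32-fold higher, and the difference was 1.12 on the log2 scale (standard error 0.29, adjusted p = 0.129 from limma). Ift140 lies on chromosome 17 from 25016085 to 25099495, plus strand. It was the only general cilium gene with an unadjusted p-value under 0.05 under median-of-ratios scaling (log2 fold change 0.74), under quantile normalization (0.62) and with the trends removed (0.65). Of all rows, 11.1%, 8.77% and 4.67% were higher at that level under these settings. Ift122 was at 8.12 and 5.20 TPM in +/+ NSCs, against 10.25 and 16.81 TPM in Chd5-/- NSCs, a difference of 0.91 on the log2 scale (standard error 0.37, adjusted p = 0.217).

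The 6 BBSome genes among the 41 differed among themselves, around a median of 0.37 on the log2 scale that was -0.014 with median-of-ratios scaling and -0.13 with quantile normalization. Bbs2, a subunit of the BBSome core, was at 11.60 and 8.54 TPM in +/+ NSCs, against 14.89 and 18.88 TPM in Chd5-/- NSCs (log2 fold change 0.70, standard error 0.29, adjusted p = 0.225). Bbs1, which binds cargo and the GTPase that recruits the complex, and Bbs9, a scaffold subunit, had log2 fold changes of 0.65 and 0.60. Their genotypes did not overlap, but the nearest +/+ and Chd5-/- samples were close, at 5.29 and 5.65 TPM for Bbs1 and 10.91 and 11.11 TPM for Bbs9. The log2 gaps between the Chd5-/- samples, 0.70 and 0.87, were wider than these differences between genotypes. Bbs1 had -0.0084 with quantile normalization. Bbs7 differed by 0.15, with a 95% interval from -0.45 to 0.75, and by -0.24 with median-of-ratios scaling. In Bbs4 and Bbs5 the Chd5-/- samples lay on either side of the +/+ samples. Bbs4 was at 6.94 and 7.12 TPM in +/+ NSCs, against 3.45 and 10.07 TPM in Chd5-/- NSCs. Bbs5 was at 9.52 and 11.86 TPM in +/+ NSCs, against 16.76 and 5.55 TPM in Chd5-/- NSCs. The 2 genes were thus high in opposite Chd5-/- cultures. Exons of Bbs4 overlap those of the opposite-strand gene Adpgk, and exons of Ift57, Ift88 and Prom1 overlap antisense transcripts.

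Arl13b, a small GTPase that marks the ciliary membrane and is needed for Hedgehog signalling there, was nearly level across the samples. It was at 16.48 and 17.33 TPM in +/+ NSCs, against 16.05 and 18.63 TPM in Chd5-/- NSCs. Its log2 fold change was 0.031, with a 95% interval from -0.59 to 0.65. Kif3a was at 59.93 and 46.32 TPM in +/+ NSCs, against 66.30 and 94.38 TPM in Chd5-/- NSCs (log2 fold change 0.58, standard error 0.28, adjusted p = 0.274).

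**Figure D2:**
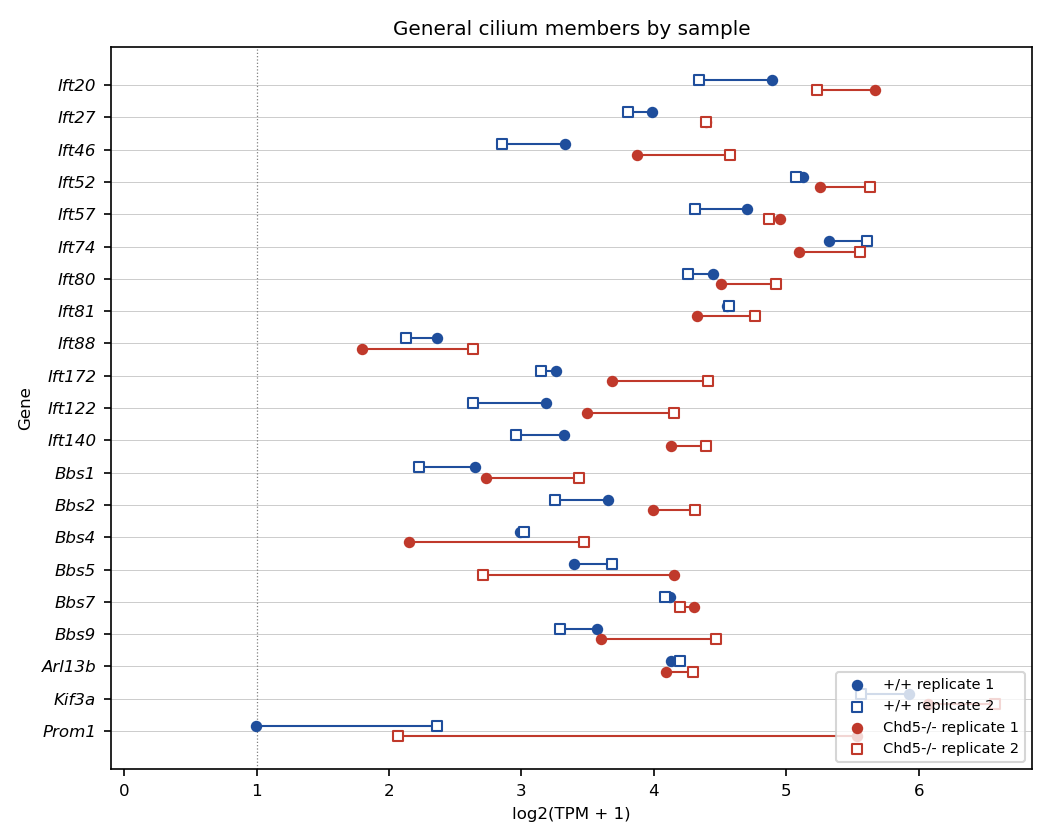
Levels of the 21 general cilium genes as log2(TPM + 1), with 1 point per sample (blue, +/+; red, Chd5-/-; filled circles, replicate 1; open squares, replicate 2) and a line joining the samples of a genotype. Ift140 shows 2 separate pairs, Bbs4 and Bbs5 show +/+ points between the Chd5-/- points, and Prom1 shows 1 far point at 45.27 TPM.

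Prom1 encodes CD133, a glycoprotein of membrane protrusions and the primary cilium that serves as a surface marker of NSCs and is also made by ependymal cells. It had the largest difference of the genes tested and the largest spread. It was at 0.99 and 4.15 TPM in +/+ NSCs, against 45.27 and 3.20 TPM in Chd5-/- NSCs. Only Chd5-/- replicate 1 was high, and Chd5-/- replicate 2 lay between the +/+ samples. The log2 fold change of 2.12 had a standard error of 1.19 (adjusted p = 0.329), and without Chd5-/- replicate 1 it was 0.39. Prom1 lies on chromosome 5 from 43993620 to 44102032, minus strand.

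Some markers of other cells were, like Prom1, high in Chd5-/- replicate 1. Cd24a, a surface protein of ependymal cells and neuroblasts, was at 413.18 TPM there and between 38.40 and 72.51 TPM in the other 3 samples. Of the choroid plexus list 7 of 8 genes had a row, and their summed level was 132 TPM in Chd5-/- replicate 1, 41.5 TPM in replicate 2 and 31.0 and 21.1 TPM in the +/+ samples. Folr1 of this list was at 18.48 TPM in Chd5-/- replicate 1, at 0.24 TPM in replicate 2 and at 0 in the +/+ samples. Otx2 gave most of the sum, with 99.68 TPM in Chd5-/- replicate 1, 36.58 TPM in replicate 2 and 28.29 and 18.26 TPM in the +/+ samples. Of the 7 genes, 4 were higher in Chd5-/- replicate 1 than in replicate 2 and 2 were lower. Kcnj13, a channel of choroid plexus epithelium, was at 0 in Chd5-/- replicate 1 and at 0.25 TPM in replicate 2. All 8 listed mesenchymal markers had a row, and 7 were higher in Chd5-/- replicate 1 than in replicate 2. Their summed level was 48.4 TPM in Chd5-/- replicate 1, against 5.94 to 20.0 TPM in the others. Foxc1 gave most of this sum, with 26.59 TPM in Chd5-/- replicate 1, 5.57 TPM in replicate 2 and 19.87 and 17.81 TPM in the +/+ samples. Acta2 was at 9.55 TPM, Col3a1 at 7.41 TPM, Dcn at 4.17 TPM and Col1a1 at 0 in Chd5-/- replicate 1. In the other samples Acta2 did not exceed 0.30 TPM and Col3a1 did not exceed 0.04 TPM. Of the 19 motile genes, 10 had their highest level in this culture, most of them with a mean under 1 TPM, as had 5 of the 21 general genes. This share was not counted over all rows. The 10 include Foxj1, Rfx2 and Rsph1, while Rsph9, Ccdc39 and Rfx3 had their highest level in Chd5-/- replicate 2. The part of other cells in these levels was not tested. In Chd5-/- replicate 2, Cd24a at 72.51 TPM, Folr1 at 0.24 TPM and Dcn at 0.06 TPM were also above both +/+ samples. Of these, Folr1 and Dcn were near 0, and Foxc1 at 5.57 TPM was below both +/+ samples. Both Chd5-/- samples lay above both +/+ samples in 4 of the 7 choroid plexus and 2 of the 8 mesenchymal genes. They lay below in 0 of either list. Of all 18169 rows, 7468 lay above and 1924 below.

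Ependymal markers outside the 41 genes ranged from 0 to the level of Cd24a. All 10 listed genes had a row, 7 of which are also in the list of other motile genes used here. Mcidas, a switch gene of the multiciliated fate, was listed at 0 in both +/+ samples, with 0.06 and 0.13 TPM in Chd5-/- NSCs, and Gmnc was at 0.02 TPM in +/+ replicate 1 and at 0 in the other 3. Tmem212 was at 0 in 3 samples and at 0.16 TPM in +/+ replicate 2. Rarres2, a secreted protein, was highest in the same culture as Prom1 and Cd24a, at 11.72 TPM in Chd5-/- replicate 1 and between 0.53 and 1.13 TPM in the other 3 samples. Dynlrb2 was highest in Chd5-/- replicate 2, at 8.42 TPM, and Fam183b in +/+ replicate 2, at 5.25 TPM. Summed over the list the level was 71.5 and 47.8 TPM in the +/+ samples and 432 and 83.7 TPM in Chd5-/- NSCs, of which Cd24a gave 66.91, 38.40, 413.18 and 72.51 TPM. All 10 listed markers of NSCs were at 1 TPM or more in every sample, from Vim at 1068 to 1502 TPM to Hes5 at 8.52, 3.13, 1.16 and 43.69 TPM. Their summed level was 9872 and 8182 TPM in +/+ NSCs and 3956 and 6916 TPM in Chd5-/- NSCs. Fabp7 gave the largest part of it, with 5892 and 4316 TPM in +/+ and 1939 and 3822 TPM in Chd5-/- NSCs. Slc1a3 was at 1871 and 1620 TPM in +/+ and 442 and 1006 TPM in Chd5-/- NSCs. The sum thus says little of the other markers, such as Nes and Pax6, whose genotypes overlapped. Both Chd5-/- samples lay below both +/+ samples in 5 of the 10 and above in 1, where 13% and 46.3% of all rows tested did. At an unadjusted p-value under 0.05, 1 was lower (Slc1a3, log2 fold change -1.38, adjusted p = 0.162) and 0 were higher. Of all rows, 2.27% were lower and 21.9% higher at that level. The microglia list had 1 row of 8 genes, Aif1, at or below 0.17 TPM. The 4 endothelial genes found summed to 4.98 and 19.6 TPM in the +/+ samples and 1.79 and 1.17 TPM in the Chd5-/- samples, most of it Flt1.

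The Chd5-/- cultures differed from each other in many of these genes. In 11 of the 21 general genes the gap between the 2 Chd5-/- samples was wider than the difference between genotypes, as in 47.0% of all rows tested. This was so for 1 of the 5 motile genes tested, Rfx3. Chd5-/- replicate 2 was above replicate 1 in 16 of the 21 general genes, where 50.1% of all rows tested were. Proliferation markers went the same way, as all 10 listed genes of cycling cells were higher in Chd5-/- replicate 2 than in replicate 1. Between genotypes, all 10 also had positive log2 fold changes, where 70.4% of all rows tested did, with a median of 0.70. In 7 of them both Chd5-/- samples lay above both +/+ samples, where 46.3% of all rows tested did. At an unadjusted p-value under 0.05, 3 of the 10 were higher in Chd5-/- NSCs (Ccnb2, log2 fold change 1.70, Aurka, 1.17, and Birc5, 0.95). Of all rows, 21.9% were higher at that level. None of the 10 passed the adjusted threshold. Under each of the other scalings 0 were higher at the unadjusted level. Mki67, whose genotypes overlapped, was at 48.23 and 23.46 TPM in +/+ NSCs, against 42.95 and 80.06 TPM in Chd5-/- NSCs. All 8 listed astrocyte genes were higher in that culture too, with Gfap at 0.71 TPM in Chd5-/- replicate 1 and 19.66 TPM in replicate 2. The part of proliferation or of astrocyte-like cells in the general cilium genes was not tested.

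**Figure D3:**
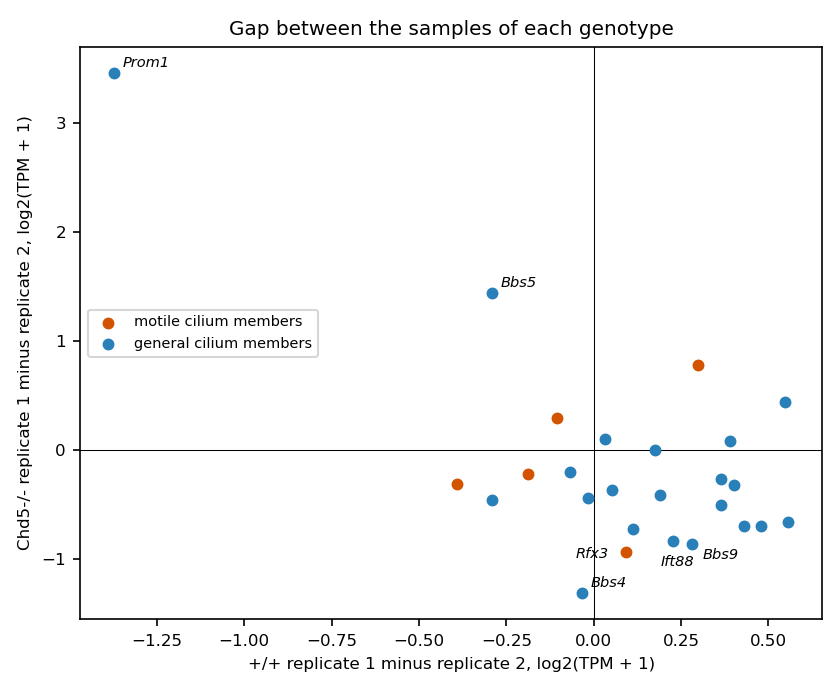
Gap between the samples of a genotype for the 26 genes tested, in log2(TPM + 1), with replicate 1 minus replicate 2 of +/+ on the horizontal axis and of Chd5-/- on the vertical axis. Most general genes lie below 0 on the vertical axis, and Prom1 and Bbs5 lie far above it.

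The differences varied with the base composition of the transcripts. Spearman's rho between GC content and log2 fold change was 0.73 across the 26 genes tested and 0.62 across 12110 rows. Genes of the same 4 libraries are not independent points. Of 10 bins of 1211 rows each, the median log2 fold change was -0.22 in the bin of lowest GC content and 1.05 in that of highest GC content. The median GC content was 51.7% for the 19 motile genes, 55.6% for the 5 of them tested and 47.6% for the general genes, against 49.6% for all rows tested. The 6 genes with negative log2 fold changes, Bbs5, Rfx3, Ift74, Ift81, Ift88 and Bbs4, had GC contents between 39.9% and 46.7%. Ccdc39, Ift80, Arl13b, Bbs7, Ift57 and Prom1 lay in the same range or at its lower edge and had positive values. Prom1 was far above the median of its GC bin. Ccdc39, Ift46, Rsph9, Ift20 and Ift140 were among others above theirs, as with Ift46 at 1.13 against a bin median of 0.38. Bbs4, Ift27, Rfx2 and Ift88 were below the medians of their bins, as with Ift27 at 0.50 against 0.71 and Rfx2 at 0.81 against 1.05. Ift88 was only slightly below.

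**Figure D4:**
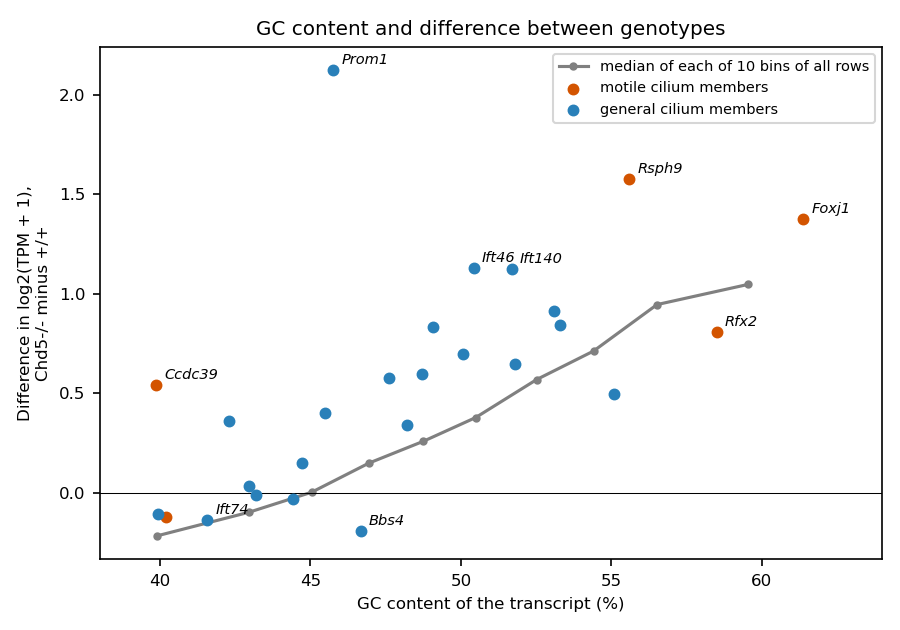
Difference in log2(TPM + 1) between genotypes (vertical axis) against the GC content of the transcript (horizontal axis) for the 26 genes tested, with the median of each of 10 bins of all rows in grey. Most points lie higher toward the right, as the grey line does, up to Foxj1 at 1.37, but Ccdc39, the point farthest left, is at 0.54 and Prom1 stands apart at 2.12.

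Under 3 other scalings the median of all rows came near 0, and the medians of both groups of cilium genes were smaller. Scaling by median of ratios shifted the median of all rows from 0.34 to -0.032, quantile normalization to -0.052 and removal of GC and length trends to -0.026. The medians of the motile genes were then 0.61, 0.33 and 0.29, and those of the general genes 0.11, 0.085 and 0.27. At an unadjusted p-value under 0.05, 2, 1 and 0 motile genes and 1 general gene under each were higher. These scalings had 11.1%, 8.77% and 4.67% of all rows higher at that level. Foxj1 and Rsph9 kept a positive difference under each scaling, from 0.29 to 1.06 and from 0.67 to 1.24. Ift140 and Ift46 kept one too, from 0.62 to 0.74 and from 0.62 to 0.75.

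**Figure D5:**
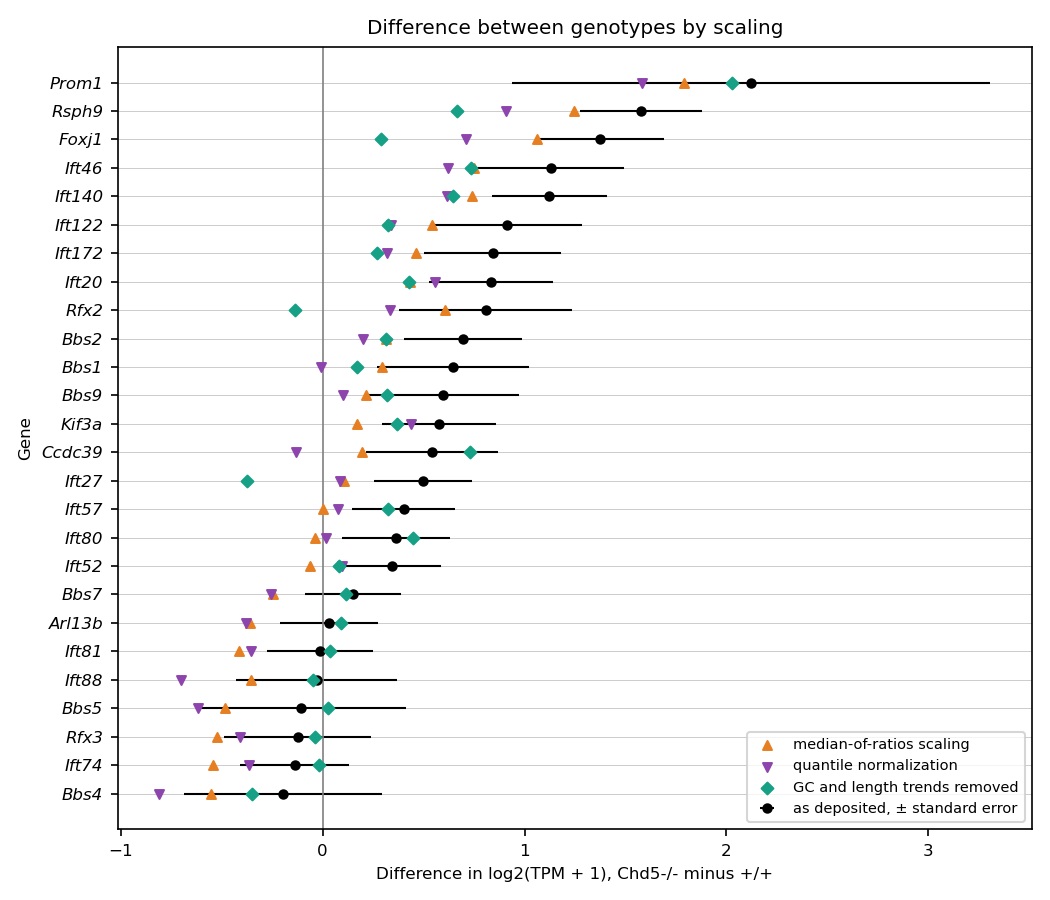
Difference in log2(TPM + 1) between Chd5-/- and +/+ NSCs for the 26 genes tested, as deposited with its standard error (black) and under 3 other scalings (colours). Rsph9 and Foxj1 stay right of 0 under all 4, and Ift27 and Rfx2 lie left of 0 with GC and length trends removed.

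Genes with and without the RFX core site covered overlapping ranges. The 12 genes tested with the core site in a promoter window lay between -0.12 and 1.12 in log2 fold change, with a median of 0.45. The 10 tested genes with a window and no core site lay between -0.19 and 2.12, with a median of 0.65.

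Other genes of the cilium were described from lists of 156 names, of which 138 had a row and 98 were tested. With limma 0 passed the adjusted threshold, and at an unadjusted p-value under 0.05 22 were higher and 2 lower, where 21.9% and 2.27% of all rows were. Their median log2 fold change was 0.30, beside 0.34 for all rows. For 76 other motile genes, 61 had a row, only 25 reached the minimum, and 6 of these were higher at an unadjusted p-value under 0.05, with a median of 0.52. The 20 other IFT genes tested had a median of 0.26, with 3 higher. The 20 genes of the transition zone, the gate at the base of the cilium, had a median of 0.31, with 7 higher. The 10 other Bardet-Biedl genes had a median of 0.013, with 1 higher and 1 lower. The 23 centriole genes had a median of -0.0021, with 5 higher and 1 lower.

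The 5 largest positive differences among these other genes were in basal body and transition zone genes. B9d2 and B9d1, partner proteins of the transition zone, had log2 fold changes of 1.38 and 1.21. B9d2 was at 0.76 and 0.96 TPM in +/+ NSCs, against 3.45 and 4.22 TPM in Chd5-/- NSCs (adjusted p = 0.126). Fbf1 and Cep89, proteins of the distal appendages that dock the basal body, had 1.28 and 1.21, and Odf2, which builds subdistal appendages, had 1.17. With the trends removed these 5 values lay between 0.32 and 0.72.

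The 5 largest negative differences were in E2f5, Arl6, Cetn4, Rpgr and Bbip1. E2f5, a transcription factor that takes part in centriole amplification, was at 69.96 and 78.22 TPM in +/+ NSCs, against 43.41 and 52.68 TPM in Chd5-/- NSCs (log2 fold change -0.62, adjusted p = 0.189). Arl6, the GTPase that recruits the BBSome to membranes, was at 37.79 and 37.29 TPM in +/+ NSCs, against 24.59 and 24.45 TPM in Chd5-/- NSCs (log2 fold change -0.59, adjusted p = 0.188). For Arl6 the samples of each genotype nearly coincided, and it was lower in Chd5-/- NSCs under each of the other scalings, by -0.997 with median of ratios, -0.88 with quantile normalization and -0.46 with the trends removed. Cetn4, Rpgr and Bbip1 differed by -0.45, -0.44 and -0.41. Of these 5 genes only Cetn4 overlapped between genotypes.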

How the data were processed

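RNA-seq of primary NSCs (2 +/+ and 2 Chd5-/- samples, stranded libraries of polyadenylated RNA) was used. The authors deposited TPM values in 1 table, made from their reads with steps for which the submitters' processing notes list mm10, Bowtie2 2.2.3 and RSEM 1.2.20. The annotation and the strand setting are not given in the sources used here. Columns were assigned to samples by name.

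The values were used as deposited. On the scale log2(TPM + 1), limma 3.58.1 (R 4.3.3; lmFit and two-sided eBayes with a trend) was run on every row whose mean reached 1 TPM, with Benjamini-Hochberg adjustment over all rows. GC content and length were those of the longest coding transcript in GENCODE M21 (GRCm38), found for 96.3% of rows tested, and trends were removed by loess (span 0.5). Promoter sequences were from RefSeq (GRCm38.p6). The fit was tested on simulated data. Python 3.11.15 with pandas 2.3.3 was used for tables, and matplotlib 3.10.9 for figures.

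The members, lists and tests were chosen with earlier results of these data known. All 41 members were accounted for, and of the other cilium lists the 5 tested genes at each end were named. Other genes were named after their values were seen. Alternatives were other pseudocounts (0.1, 5), minima (none, 10 TPM), scalings, variance models, a replicate block and leaving out each sample.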

Additional observations from a re-analysis of the deposited data

How the results depend on the processing

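Depth is unknown for TPM, so its part in these comparisons could not be measured, and 2 samples per genotype limit the precision of all of them. Of the 26 genes tested, 12 kept their sign under all alternatives. The cause of the changes below was not tested. Adjusted calls over all rows numbered 7, and 4 with a pseudocount of 0.1, 0 with no minimum, 3 with quantile normalization, 3 after removal of GC and length trends and 0 with a replicate block, with or without these trends. Leaving out 1 sample gave 0 to 1247 such calls, 0 without either +/+ sample, and 0 to 1 motile, 0 to 1 general and 0 to 3 other cilium genes. There a genotype of 1 sample is assumed to vary like the other.

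The median log2 fold change of motile genes, 0.81, was 1.46 and 0.31 with pseudocounts of 0.1 and 5, 0.16 with no minimum, -0.12 at a minimum of 10 TPM (Rfx3 alone), 0.61 with median-of-ratios scaling, 0.33 with quantile normalization and 0.29 with the trends removed, with or without a replicate block. Leaving out 1 sample gave 0.70 to 1.198. That of general genes, 0.50, was 0.11, 0.085 and 0.27 under the same scalings, 0.27 with the block and trends, and 0.33 to 0.60 with 1 sample left out. The log2 fold change reversed with the trends removed for Ift27 (-0.37), Rfx2 (-0.14), Bbs5 (0.029) and Ift81 (0.036), with the same values under the block and trends. It reversed with median-of-ratios scaling for Arl13b (-0.36), Bbs7 (-0.24), Ift52 (-0.063) and Ift80 (-0.037), and with quantile normalization for Arl13b (-0.38), Bbs7 (-0.26), Ccdc39 (-0.13) and Bbs1 (-0.0084). With 1 sample left out it ran from -0.070 to 0.13 for Arl13b, -0.85 to 0.46 for Bbs4, -0.83 to 0.61 for Bbs5, -0.37 to 0.091 for Ift74, -0.23 to 0.21 for Ift81, -0.45 to 0.39 for Ift88 and -0.59 to 0.35 for Rfx3.

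At an unadjusted p-value under 0.05, general genes higher in Chd5-/- NSCs numbered 3, but 0 without +/+ replicate 2 and 7 without Chd5-/- replicate 1, when of all rows 723 and 3493 were higher in place of 2748. Motile genes numbered 2, but 1 without +/+ replicate 1 (1506 of all rows) and 4 with no minimum (3089). Of all rows 2748 were higher and 285 lower, but 1391 and 1507 with median-of-ratios scaling, 1103 and 1021 with quantile normalization and 565 and 752 with the trends removed. The 22 other cilium genes became 6, 4 and 1 under these scalings and 9 with the block. The replicate numbers were not taken as pairs, since deviations of same-numbered samples correlated at -0.15. With the numbers crossed, an alternative added after seeing the data, 5 rows and 0 cilium genes passed the adjusted threshold.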
